A study of Bos taurus with 6 samples.

Results

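The miRNAs described here are the 8 mature products of the paralogous miR-106b/miR-25 and miR-106a/miR-363 clusters and of the separate miR-92b locus, out of 956 mature and putative miRNAs in the deposited count table. They were chosen by name. The miR-106b/miR-25 cluster gave bta-miR-106b, bta-miR-93 and bta-miR-25, and the miR-106a/miR-363 cluster gave bta-miR-106a, bta-miR-18b, bta-miR-20b and bta-miR-363, while bta-miR-92b stands alone. The prefix bta, for Bos taurus, is left out below. Each of the 8 had a single deposited row, so no rows of a member had to be summed. Bovine cumulus cells, which enclose the oocyte and form the cumulus-oocyte complex (COC) with it, had been sampled as small pieces after in vitro maturation with follicle stimulating hormone and fetal bovine serum. The COCs were then fertilized and cultured one by one, and the pieces were pooled by the fate of the oocyte. Small RNA was sequenced from 3 not-cleaved pools (Samples A, B and C), whose oocytes had met sperm without cleaving, and 3 blastocyst pools (Samples D, E and F), whose oocytes reached that stage. The ovaries came from a slaughterhouse and each pool mixed several COCs, so a library is an average over COCs. The sources used here do not give the age or breed of the cows. No source ties the pools to separate collection days or animals, and p-values therefore cover the spread between these pools only.

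The clusters are copies of one ancestral miRNA cluster, and another copy, miR-17~92, is the best known of them. All are transcribed as a long precursor from which each miRNA is cut, and they are known for promoting cell cycle entry and cell survival. Loss of miR-17~92 is lethal in mice, whereas mice without miR-106b/miR-25 or miR-106a/miR-363 live. A miRNA finds its targets mainly through its seed, the short stretch near its 5′ end, and by textbook assignment the members fall into seed groups that cross the clusters. miR-106b, miR-93, miR-106a and miR-20b share a seed with miR-17-5p and miR-20a, miR-25, miR-363 and miR-92b share another with miR-92a, and miR-18b shares that of miR-18a. In the RefSeq table of assembly ARS-UCD2.0, all 3 precursors of miR-106b/miR-25 lie within the span of MCM7, which encodes a subunit of the replicative helicase. The precursors of miR-106a, miR-18b, miR-20b and miR-363 lie together on the X chromosome with those of MIR19B-2 and MIR92A-2, and no other miRNA precursor of that table lies within 10 kb of MIR92B.

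Library totals ran from 2776256 to 8139237 counts, a 2.93-fold range. Levels are given as CPM, the counts scaled to a library total of 1000000. The gonadal miRNA miR-202 lay at 5968 to 8454 CPM in every library, and miR-132 and miR-212, which respond to gonadotropins in granulosa cells, together at 968.7 to 1240 CPM. A list of 7 blood cell miRNAs summed to at most 5.04 CPM, with miR-144 and miR-223 at 0 counts throughout, and a list of 4 miRNAs of endothelium and vessel wall summed to 15.1 to 29.9 CPM. A list of 3 miRNAs of striated muscle summed to 4.45 to 4.91 CPM in not-cleaved and 9.95 to 43.7 CPM in blastocyst pools. It was highest in Sample D, where 1 miRNA held 347 counts and so nearly all of the sum. It was the only one of these lists whose groups did not overlap. Among the 316 single miRNAs tested below, the groups did not overlap for 28 (8.86%) on scaled levels. The part of this list in the values below was not tested. Samples B and E stood apart from the others. Of 228 miRNAs with a mean of at least 50 counts, 6 in Sample B and 17 in Sample E lay more than 3 log2 units from the median of the other libraries, against 0 or 1 in each other library. The 5 members with that many counts were not among them, and miR-20b, miR-363 and miR-18b were too low to be counted. miR-21-5p alone held 39.7% (Sample B) to 61.5% (Sample D) of each library, and a higher share of it leaves less of the total for all others. miR-25 and miR-106b had their highest CPM in Sample D, where the share of miR-21-5p was highest. miR-93 and miR-106a had theirs in Sample B, where it was lowest. How far this share shaped the CPM of single members was not tested. In bulk samples, fewer cells of a type and less RNA per cell cannot be told apart.

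The 3 members of miR-106b/miR-25 had far more counts than the 4 members of miR-106a/miR-363. The latter sum is not the whole of that cluster, because miR-92a and miR-19b, which miR-17~92 also encodes, cannot be assigned to either and are left out. miR-92a alone was at 8347 to 14618 CPM, so the ratio of the whole clusters is not known. The summed level of miR-106b/miR-25 was 4796, 5388 and 3591 CPM in Samples A, B and C and 5286, 3431 and 4450 CPM in Samples D, E and F. The 4 members of miR-106a/miR-363 summed to 44.4, 68.1 and 51.2 CPM in Samples A, B and C and to 58.7, 56.3 and 55.1 CPM in Samples D, E and F. Within a library the first sum was thus 60.9 to 108 times the second, lowest in Sample E and highest in Sample A. The mean log2 ratio was 6.32 ± 0.29 (SD, n = 6 libraries), or 80.0-fold, and this ratio of listed members was above 1 in 6 of 6 libraries (two-sided exact sign-flip permutation test, p = 0.031, the smallest p that 6 libraries allow). Taken as the mean over members of log2 counts, in which each member weighs the same, the difference was 8.14. miR-92b alone, at 320.1 to 491.9 CPM, was 5.45 to 11.0 times as abundant as these 4 members together. Together the 8 members took 0.394% to 0.586% of a library's counts. Counts of different miRNAs also carry the efficiency of adapter ligation and PCR for each sequence, which was not tested.

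**Figure D1:**
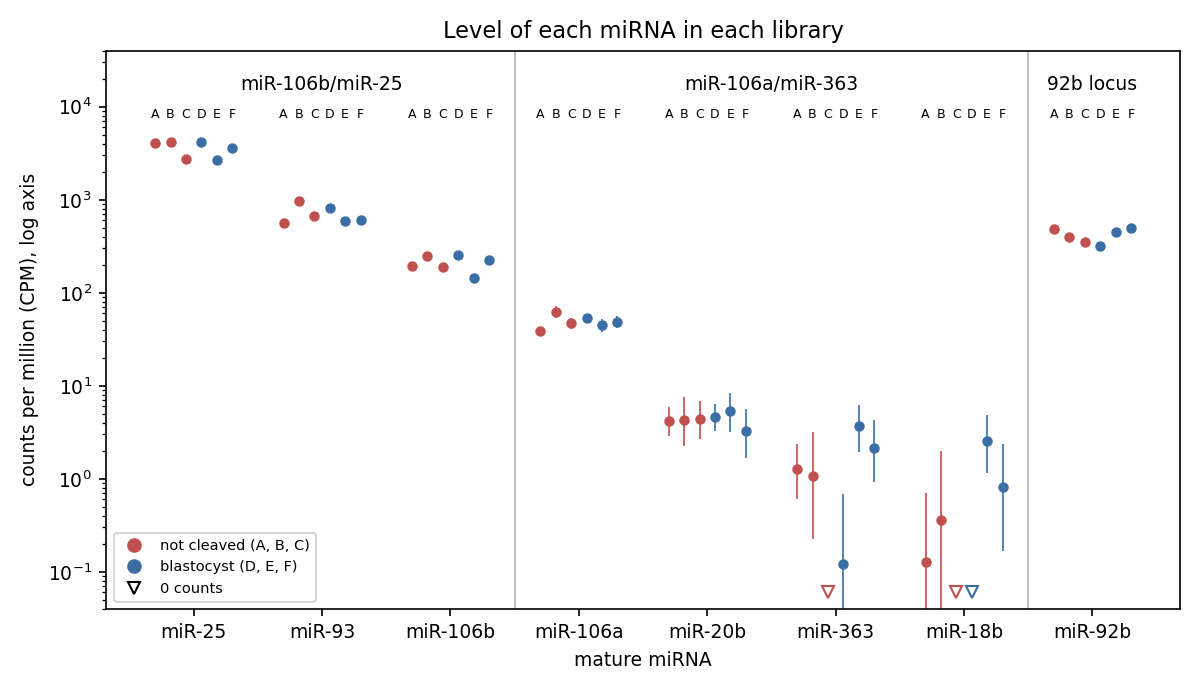
CPM (log axis) of the 8 miRNAs in the 6 libraries, with 95% exact Poisson intervals for counting error. Open triangles mark 0 counts, and an interval that reaches the lower edge of the plot ends below it. miR-25 lay between 2697 and 4216 CPM in all libraries, while miR-363 and miR-18b were at 0 counts in Sample C.

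miR-25, which represses the pro-apoptotic gene BCL2L11 (BIM) in human cells, was the leading member. The not-cleaved Samples A, B and C held 31714, 11560 and 11699 counts of it, which are 4032, 4164 and 2735 CPM. The blastocyst Samples D, E and F held 34318, 9577 and 13439 counts, which are 4216, 2697 and 3612 CPM. Each group held both high and low samples, with Samples C and E lowest, and the groups overlapped. At this depth counting error was small, since the share of miR-25 in Sample B, the shallowest library, was 0.416% with a Wilson 95% interval of 0.409% to 0.424%. miR-25 ranked between 18 and 32 among all miRNAs of a library.

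miR-93 and miR-106b, which share a seed and repress the cell cycle inhibitor CDKN1A (p21) in human cells, followed at lower levels. miR-93 was at 567.4, 973.6 and 665.4 CPM in Samples A, B and C and at 813.6, 589.4 and 612.8 CPM in Samples D, E and F. Its highest level, in Sample B, was 1.72 times its lowest, in Sample A, and both are not-cleaved samples. miR-106b was at 195.9, 250.7 and 190.8 CPM in Samples A, B and C and at 255.8, 145.0 and 224.7 CPM in Samples D, E and F. Its highest and lowest levels both fell in blastocyst samples, 1.76 times apart.

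miR-25 led its cluster in each library, making up 76.2% to 84.1% of the counts, with miR-93 at 11.8% to 18.5% and miR-106b at 4.09% to 5.31%. The SD over the 6 libraries of the log2 ratio was 0.18 for miR-25 to miR-106b, 0.23 for miR-93 to miR-106b and 0.30 for miR-25 to miR-93, the last above the 0.26 of the log2 TMM-scaled level of either. miR-25 exceeded miR-93 7.11 times in Sample A and 4.11 to 5.89 times in the others. The ratio of miR-93 to its seed relatives of the miR-17~92 cluster had smaller SDs than its ratios to its own neighbours, 0.14 for both miR-17-5p and miR-20a, which is a description of 6 libraries with no test. miR-20a exceeded miR-93 1.33 to 1.73 times, and miR-17-5p was 0.781 to 0.972 times as abundant as miR-93. How the counting divided reads among such closely related sequences is not stated, so levels of members that share a seed are uncertain in this respect.

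**Figure D2:**
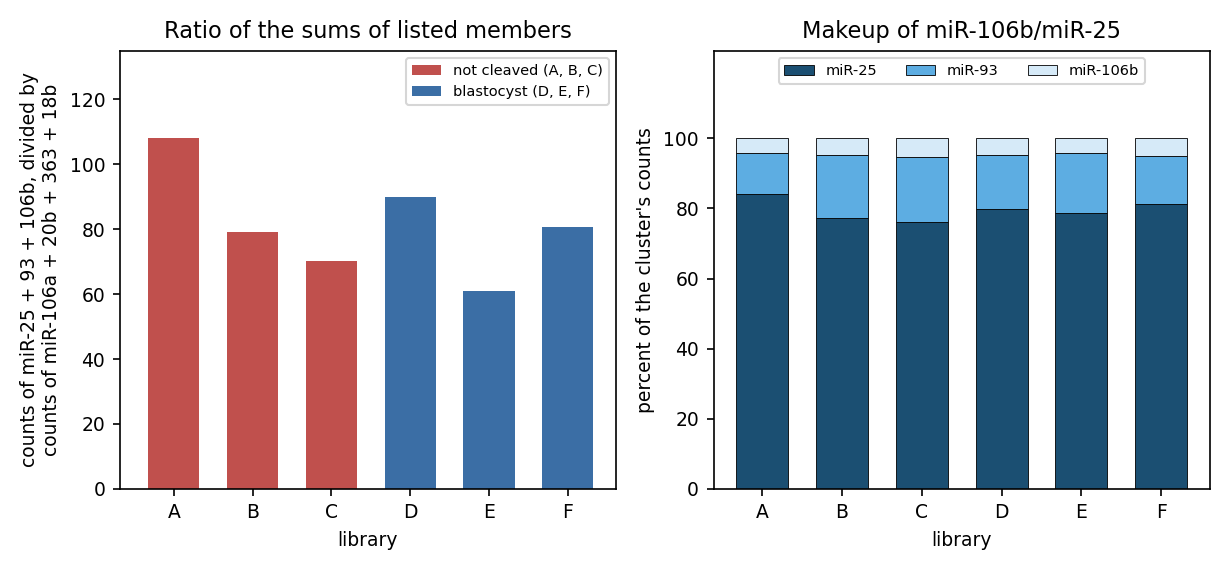
Left, counts of miR-25, miR-93 and miR-106b divided by those of miR-106a, miR-20b, miR-363 and miR-18b in each library, with 1 bar per library and no error bar. Right, percent of the counts of the miR-106b/miR-25 cluster that miR-25, miR-93 and miR-106b take. The ratio ran from 60.9 in Sample E to 108 in Sample A, and miR-25 held at least 76.2% of the cluster in each library.

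miR-106a carried most counts of the 4 members of its cluster. It had 305, 173 and 200 counts in Samples A, B and C (38.8, 62.3 and 46.8 CPM) and 439, 159 and 182 counts in Samples D, E and F (53.9, 44.8 and 48.9 CPM). The 3 blastocyst samples lay within the range of the not-cleaved samples, of which Sample A was lowest and Sample B highest. miR-106a made up 79.5% of the counts of the 4 in Sample E and 87.4% to 91.8% in the others. Its seed relative miR-106b was more abundant in each library, 3.24 times in Sample E to 5.05 times in Sample A.

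miR-20b was detected in each library, with 33, 12 and 19 counts in Samples A, B and C and 38, 19 and 12 counts in Samples D, E and F. Its levels ran from 3.23 to 5.35 CPM and their counting intervals overlapped, with 1.67 to 5.63 CPM in Sample F, the lowest, and 3.22 to 8.36 CPM in Sample E, the highest, so no difference between libraries was detectable at this depth. miR-93 exceeded miR-20b 110 to 225 times.

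miR-363 and miR-18b, the rare members, both had their most counts in Sample E, but in Sample A only miR-363 had more than 1 count. miR-363 had 10, 3 and 0 counts in Samples A, B and C and 1, 13 and 8 counts in Samples D, E and F. miR-18b had 1, 1 and 0 counts in Samples A, B and C and 0, 9 and 3 counts in Samples D, E and F. Both were highest in Sample E, at 3.66 CPM (95% Poisson interval 1.95 to 6.26) for miR-363 and 2.53 CPM (1.16 to 4.81) for miR-18b. Sample D, the deepest library, had 1 and 0 counts, and a count of 0, taken to allow up to 3 counts, allows up to 0.369 CPM there, against 0.701 CPM in Sample C. Sample E, where both were highest, had 3551009 counts in all and Sample D 8139237. Intervals and limits cover counting error only, because PCR copies were not marked.

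A miRNA of early embryonic cells, miR-371, was, like miR-363, highest in Sample E and at most 1 count in Samples C and D. miR-371 had 33, 1 and 0 counts in Samples A, B and C and 0, 29 and 8 counts in Samples D, E and F, or 4.20, 0.360, 0, 0, 8.17 and 2.15 CPM. Its step between Samples A and B had no match in miR-363, which was at 1.27 and 1.08 CPM there. miR-371 belongs to a list of 6 miRNAs of early embryo and germ cells, of which miR-302d and miR-367 were at 0 counts throughout. The list summed to 5.09, 0.720 and 0 CPM in Samples A, B and C and 0.123, 8.45 and 2.15 CPM in Samples D, E and F. In Samples A, E and F this sum was mostly miR-371, so the list as a whole shows little beyond it. miR-371 was singled out after its values were seen. The part of early embryo and germ cells in the counts of miR-363 and miR-18b was not tested.

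**Figure D3:**
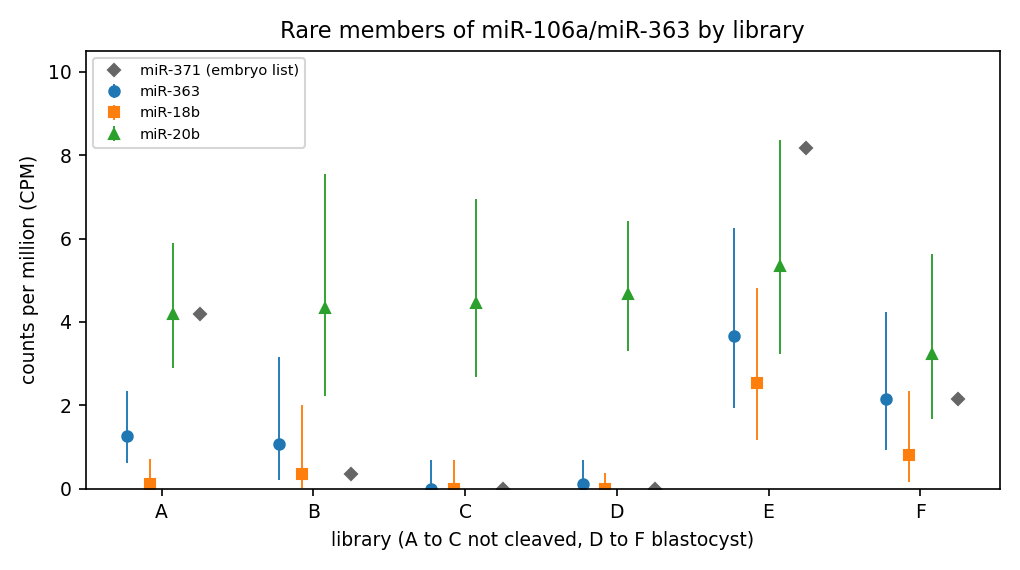
CPM of miR-363, miR-18b and miR-20b in each library with 95% exact Poisson intervals (for 0 counts, a line up to the limit of 3 counts), and of miR-371 as points without intervals. Sample E was highest for all 4, and miR-363 and miR-18b had at most 1 count in Samples C and D, where miR-20b was at 4.44 and 4.67 CPM.

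By level the members came in the order miR-25, miR-93, miR-92b, miR-106b, miR-106a, miR-20b, miR-363 and miR-18b. Each of the first 5 was above the next in 6 of 6 libraries with ranges that did not overlap. miR-20b was above miR-363 in 6 of 6 libraries, but their ranges overlapped, and miR-363 was above miR-18b in 5 of 6. Means over the 6 libraries were 3576 ± 699.3 CPM (SD) for miR-25, 703.7 ± 158.9 for miR-93, 417.5 ± 71.7 for miR-92b, 210.5 ± 41.9 for miR-106b, 49.2 ± 8.11 for miR-106a, 4.37 ± 0.693 for miR-20b, 1.38 ± 1.37 for miR-363 and 0.638 ± 0.977 for miR-18b.

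In the seed group of miR-17, the miR-106b/miR-25 cluster supplied fewer counts than miR-20a alone in each library, and miR-106a and miR-20b far fewer. miR-106b and miR-93 together took 35.9%, 35.0% and 32.1% of the counts of this group in Samples A, B and C and 34.5%, 32.5% and 34.3% in Samples D, E and F. miR-106a and miR-20b took 1.89% to 2.22%. miR-20a took 37.1% to 44.8% and miR-17-5p 20.2% to 25.97%. The whole seed group was at 2129 to 3499 CPM.

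In the seed group of miR-92, miR-92a, encoded in both miR-17~92 and miR-106a/miR-363, was the major miRNA and miR-25 the next. miR-92a took 65.1% to 78.9% of the counts, miR-25 18.1% to 32.4%, miR-92b 2.09% to 3.95% and miR-363 at most 0.0246%. Samples D and F had the highest shares of miR-25 (32.4% and 29.0%) and Sample E the lowest (18.1%), and all 3 are blastocyst samples. miR-92a and miR-19b each have 2 deposited rows, and because copies of both precursors lie in miR-106a/miR-363 as well as in miR-17~92, these counts cannot be assigned to a cluster. In Sample A the rows of miR-92a held 47573 and 39288 counts. If miR-92a and miR-19b were all counted as miR-17~92, that cluster had 2.07 (Sample D) to 3.97 (Sample E) times the counts of miR-106b/miR-25.

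**Figure D4:**
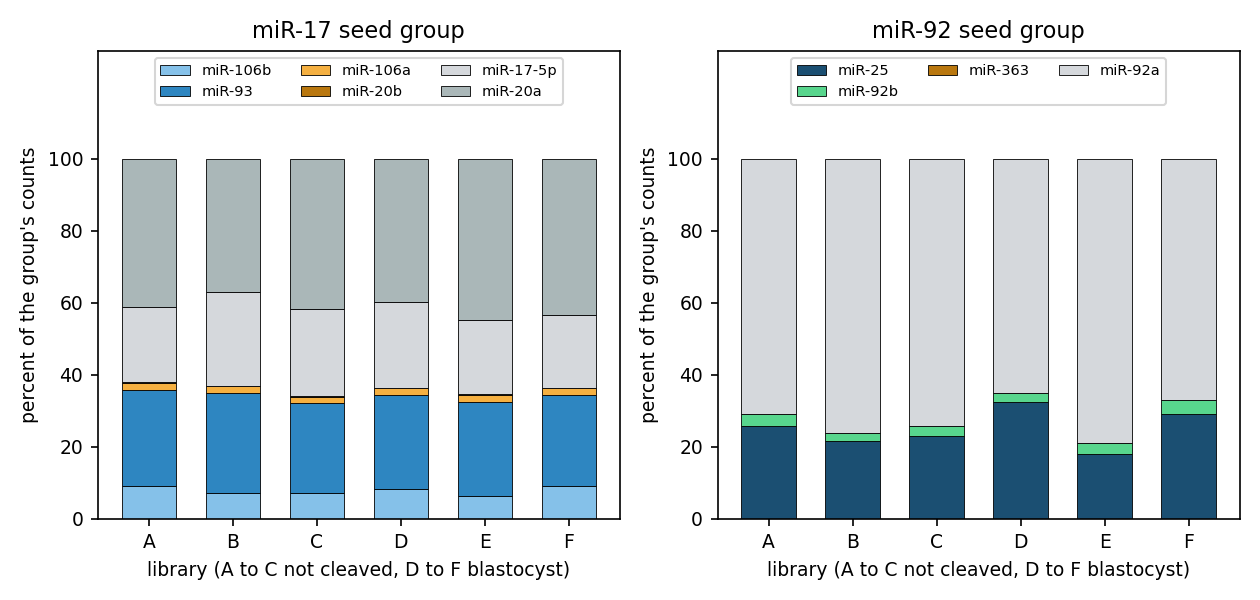
Percent of the counts of each seed group that each miRNA takes, by library, for the miR-17 seed on the left and the miR-92 seed on the right. miR-106b with miR-93 held 32.1% to 35.9% of the first group in all libraries, and miR-25 ranged from 18.1% in Sample E to 32.4% in Sample D in the second.

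The question of the design was whether any of these miRNAs differs with the fate of the oocyte, and no tested member did so past the threshold. After TMM scaling, edgeR's quasi-likelihood test was applied to the 316 miRNAs that its expression filter kept. The filter kept 6 of the 8 members and left out miR-18b and miR-363. Of the members tested, 0 had an adjusted p under 0.05, as had 0 of all 316 miRNAs tested (0.0%), and 0 members had an unadjusted p under 0.05 against 8 of all tested (2.53%). DESeq2 called 0 as well, with 4 at an unadjusted p under 0.05 (1.27%). The groups overlapped for each of the 6 members on TMM-scaled CPM. Over all tested they did not overlap for 28 (8.86%), and 6 members are too few to be set apart from that share.

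The TMM-scaled level of miR-25 was 3475 ± 465.0 CPM (SD, n = 3) for the not-cleaved and 3647 ± 846.4 CPM (SD, n = 3) for the blastocyst pools. The log2 fold change was 0.07 (SE 0.22). Its 95% interval, -0.45 to 0.59, spans changes from 0.733-fold to 1.5-fold. miR-93 had a log2 fold change of -0.01 (interval -0.56 to 0.55) and miR-106b one of 0.09 (interval -0.53 to 0.71). For miR-106a it was 0.12 (interval -0.52 to 0.75), and for miR-20b, with the fewest counts, 0.13 (interval -0.79 to 1.05). miR-92b, at 487.7, 401.3 and 352.1 CPM in Samples A, B and C and 320.1, 451.7 and 491.9 CPM in Samples D, E and F, had 0.13 (interval -0.42 to 0.68). The adjusted p of each, in edgeR's quasi-likelihood test, was 0.991 to 0.998. The intervals of all but miR-20b leave out changes of 2-fold or more in either direction, and that of miR-20b reaches 2.07-fold. The sign of these estimates turned with the scaling, with 5 of 6 above 0 here, 3 of 6 with library totals alone and 6 of 6 with upper-quartile factors, and the median over all tested miRNAs was -0.02, -0.12 and 0.245 in these fits. The median over the 6 members was 0.10.

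**Figure D5:**
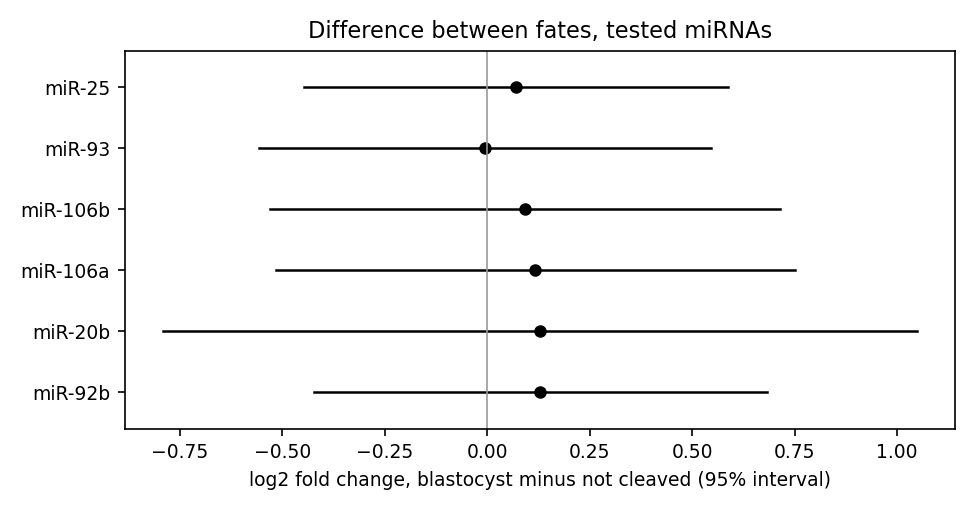
Log2 fold change of blastocyst over not-cleaved samples for the 6 tested miRNAs (points) with 95% intervals from edgeR's quasi-likelihood fit (lines), 3 libraries a group. All 6 intervals contain 0, and that of miR-20b is the widest, from -0.79 to 1.05.

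The rare members were too sparse for the test. miR-363 had 13 counts over the not-cleaved and 22 over the blastocyst samples, and miR-18b 2 and 12. With no filter the log2 fold changes were 1.39 (SE 1.28) for miR-363 and 2.84 (SE 1.77) for miR-18b, with the same adjusted p of 0.910 for both (edgeR's quasi-likelihood test). Sample E held 9 of the 12 blastocyst counts of miR-18b.

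The cluster sums and their ratio did not separate the fates either. The summed level of miR-106b/miR-25 was 4592 ± 915.6 CPM (SD, n = 3) for not-cleaved pools and 4389 ± 928.7 CPM (SD, n = 3) for blastocyst pools, and a two-sided exact permutation test gave p = 0.7. Without Samples B and E, which stood apart, the difference turned from -202.7 to 674.4 CPM (exact p = 0.667). With so few libraries left that p cannot go below 0.333. That of the 4 miR-106a/miR-363 members was 54.5 ± 12.2 and 56.7 ± 1.84 CPM (exact p = 0.8). With library totals that leave out miR-21-5p the differences of the sums were 1672 CPM (exact p = 0.5) and 28.3 CPM (exact p = 0.2). The log2 ratio of the sums was 6.40 ± 0.32 and 6.25 ± 0.29 (exact p = 0.6), a difference of -0.15 that was -0.64 as the mean over members (exact p = 0.5). miR-106b and miR-93 took 34.3% ± 1.97 and 33.8% ± 1.08 of their seed group (exact p = 0.6), and miR-25, miR-92b and miR-363 together took 26.2% ± 2.64 and 29.7% ± 7.44 of theirs (exact p = 0.5). Adjusted over these 5 tests each p was 0.8, and 3 libraries against 3 cannot give a p below 0.1. Without Sample E the last difference, 3.43 points, grew to 7.69 points, and without Sample D it was 0.828 points.

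The 7 listed miRNAs of miR-17~92 all passed the filter, and 0 had an adjusted or unadjusted p under 0.05. miR-19b had the highest point estimate, a log2 fold change of 0.25 (SE 0.23), and miR-92a the lowest, -0.15 (SE 0.19).

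The 5 members with a mean of at least 50 counts varied less over the 6 libraries than the median of all miRNAs above that floor. The SD of log2 TMM-scaled CPM was 0.21 for miR-106a, 0.26 for miR-25, miR-93 and miR-92b and 0.29 for miR-106b. The median was 0.33 over the 228 miRNAs with that many counts, with quartiles of 0.254 and 0.501. Of the 5 members only miR-106a lay below the lower quartile, and the 228 were not matched in depth. The SD was 0.25 for miR-20b, which has fewer counts. Of the 228, the miRNAs whose pattern was most like that of the miR-106b/miR-25 sum were miR-6120-3p (Pearson r = 0.95), miR-2285aa (r = 0.80) and miR-182 (r = 0.80). Those most like the miR-106a/miR-363 sum were miR-365-3p (r = 0.96), miR-452 (r = 0.95) and miR-199a-3p (r = 0.92), and those most like miR-92b were miR-3432a (r = 0.97), miR-375 (r = 0.97) and miR-328 (r = 0.94). These are the highest of 223 candidates over 6 libraries and describe these libraries only.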

How the data were processed

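Small RNA libraries of 6 pools of bovine cumulus cells, 3 per oocyte fate, were sequenced by Exiqon on an Illumina instrument, and miRNAs were identified by their miRBase entries. The authors deposited whole-number counts per miRNA row without normalization. The aligner, counter and build were not given in the sources used here. Column names gave each library its letter and group. The workbook holds 2 keys from letters to library numbers, with the same groups for the letters in both, and the groups of the numbered sample titles match 6 of 6 libraries by one key and 2 of 6 by the other. The deposited fold changes and p-values of the authors' own comparison and the log2 values behind their heat map were not used.

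The 1055 rows were summed by mature miRNA to 956 names. In R 4.3.3, edgeR 4.0.16 was run with filterByExpr by group (316 names with 99.99% of all counts), TMM factors, the quasi-likelihood test and Benjamini-Hochberg adjustment at 0.05. The SE was taken as |log2 fold change| over the root of the F statistic, and the 95% interval uses the t quantile of the fit's degrees of freedom. DESeq2 1.42.0 was an alternative. Python 3.11.15 with scipy 1.17.1 gave exact permutation tests and exact Poisson intervals, and ratios used a pseudocount of 0.5 counts. A count of 0 was taken to allow up to 3 counts. Of these steps only the edgeR fit was tested on simulated data. The members and lists were chosen with earlier results of these data known. miRNAs named are the 8 members, the list of miR-17~92, marker lists, miR-21-5p and the 3 most like each pattern by Pearson r of log2 CPM (prior count 2). miR-371 was singled out after its values were seen. Seed groups follow textbook assignment, since no file used here holds the mature sequences of the members. RefSeq positions served only for neighbours.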

Additional observations from a re-analysis of the deposited data

How the results depend on the processing

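With DESeq2, other scaling factors, other filters, deposited rows, each library left out in turn, or Samples B and E left out together, 0 members and 0 of all miRNAs were called, with 3 to 17 at an unadjusted p under 0.05. Signs of single members turned, and the cause was not tested. miR-93 (main value -0.01) was at 0.0029 with DESeq2, 0.22 with upper-quartile factors, 0.0063 without miR-21-5p, 0.035 with no filter and 0.22 without Samples B and E, and from -0.17 to 0.13 with single libraries left out. With library totals alone miR-106b was at -0.026 and miR-25 at -0.055. Without Samples B and E miR-20b was at -0.091 and miR-92b at -0.020. With single libraries left out, miR-25 ran from -0.094 to 0.24, miR-106b from -0.092 to 0.31, miR-106a from -0.016 to 0.21 and miR-20b from -0.00024 to 0.32. The difference of the miR-106b/miR-25 sum (-202.7 CPM) was 182.5 CPM with TMM-scaled library sizes, 1672 CPM with totals that leave out miR-21-5p, 674.4 CPM without Samples B and E, and -702.9 to 276.1 CPM with single libraries left out (above 0 without Sample B or Sample E). As the mean over members of log2(CPM + 1) it was -0.07, and that of the miR-106a/miR-363 members 0.33. The difference of the miR-106a/miR-363 sum (2.17 CPM) was 28.3 CPM with totals that leave out miR-21-5p, 6.61 CPM with TMM-scaled library sizes and 9.13 CPM without Samples B and E. That of the log2 ratio (-0.15) was -0.64 with the mean over members of log2(counts + 0.5) and -0.03 without Samples B and E. With single libraries left out the former ran from -2.92 (without Sample A) to 8.93 CPM, the latter from -0.28 to 0.033 (above 0 without Sample A or Sample E), that of the miR-17 seed share from -1.66 to 0.224 points (0.409 points without Samples B and E) and that of the miR-92 seed share from 0.828 to 7.69 points. The mean log2 ratio of the cluster sums (6.32) was 8.14 with the mean over members of log2(counts + 0.5), 6.32 with a pseudocount of 1 count and 6.34 without miR-18b. It ran from 6.24 to 6.40 with a library left out, where the smallest possible exact p is 0.0625, and was 6.43 without Samples B and E (exact p = 0.125, again the smallest possible). No paired analysis was possible because no source used here pairs a not-cleaved library with a blastocyst library. Depth limits miR-18b, miR-363 and miR-20b, with at most 38 counts in a library.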

Other observations

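miR-92b, whose locus lies outside both clusters, had TMM-scaled levels over the 6 libraries that went against those of miR-93 (Pearson r = -0.90) and of miR-17-5p (r = -0.92), while its correlation with its seed relatives miR-25 (r = -0.22) and miR-92a (r = -0.12) was weaker. The miR-106a/miR-363 sum correlated with miR-20a (r = 0.88) and miR-93 (r = 0.73) more than with miR-25 (r = -0.07). These values describe 6 libraries that share a scaling, were picked out after all values were seen, and carry no test.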
